A study of Arabidopsis thaliana with 6 samples.

Results

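The step described here is that between day 3 and day 4 of a drought treatment, in unopened flower buds of Arabidopsis thaliana. It rests on 4 of the 6 arrays of the series, which are all those whose titles name these days: 2 arrays of day 4 and 2 of day 3. The remaining 2 arrays, of day 5, served to estimate the spread and to follow the genes further. Plants of every array carried anac019-1, the T-DNA insertion allele SALK_096295 of ANAC019, which encodes a transcription factor of the NAC family, and all were of the cultivar Col-0. They grew for 24 days with full watering until the main stem had just emerged, when watering stopped. About 80 hours on, at what the submitters count as day 3, the soil held near 35% of its water capacity and was kept there by daily watering. Day 4 buds came from plants 29 days after germination and day 3 buds from plants 28 days after germination. Drought therefore lasted a day longer in plants that were a day older, and these cannot be told apart. Buds of wild-type plants and of watered plants were not analysed here, and the labels do not give the hour at which buds were taken. No probe set is named for ANAC019, so the mutation was not checked on the arrays. How many plants an array stands for, and whether replicates came from separate pots, is not given, so the p-values measure a spread that may be technical.

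Plants that lose water make abscisic acid (ABA), which closes stomata and switches on protective genes. Among these are late embryogenesis abundant (LEA) proteins, dehydrins and COR proteins, hydrophilic proteins known from drying seeds and cold-treated leaves, which protect membranes and other proteins. Drying also slows growth, and genes for building and loosening the cell wall are commonly among those that change, while a flower bud goes on making anthers, pollen and ovules.

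Arrays of day 4 and day 3 were close. Every value is a log2 probe set summary, so a difference of 1 is a 2-fold change. Pearson's r across the 22746 probe sets tested was 0.9963 between the day 4 replicates, 0.9937 between the day 3 replicates and 0.9919 to 0.9948 between the days. The median change over all probe sets was -0.0047 and the median size of a change, whatever its sign, was 0.113. Replicates differed by a median of 0.113 on day 4 and 0.16 on day 3, and lay at least 2-fold apart at 49 probe sets on day 4 and 132 on day 3. Day 3 replicate 1 differed from the other arrays in the gap between 3′ and 5′ control probe sets (actin, GAPDH and ubiquitin, averaged), a measure of RNA integrity and labelling. That gap was 2.34 and 2.31 on day 4, against 2.94 and 2.3 on day 3. The part of this in the results was not tested, and each gene group is given with the calls it kept when an array was left out. Of the markers of the labelled tissue, the tapetum gene SHT stood at 10.63 and 10.59 on day 4 and at 10.77 and 10.58 on day 3. EXPA7, an expansin of root hairs, read 3.72 and 3.66 on day 4 and 3.85 and 3.62 on day 3, near the low end of the scale. Bud markers were not all bright, since UFO, the only fixed organ identity marker measured, also read low. The median of 8 listed meiosis genes was 4.15 on day 4 and 3.87 on day 3.

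In limma's test with Benjamini-Hochberg adjustment, 114 probe sets passed an adjusted p of 0.05, which is 0.501% of those tested. Of these, 61 were higher on day 4 (0.268%) and 53 were lower (0.233%). The smallest change that passed was 0.709, and 77 probe sets (0.339%) changed at least 2-fold. In all 114 both day 4 arrays lay on the same side of both day 3 arrays. Such non-overlap alone was common, since 4057 probe sets (17.8%) had both day 4 arrays above both day 3 arrays and 4820 (21.2%) had them below. A gap of at least 1 log2 unit between the nearest arrays of the days was rare, with 35 probe sets higher (0.154%) and 25 lower (0.11%). Of these, 54 had also passed the test.

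Named genes made up 57 of the 114 probe sets, 28 higher (0.21% of the 13356 genes with a probe set of their own) and 29 lower (0.217%). The other 57 probe sets are not named here, because the platform annotation gives them several genes or none. Of the named genes, 21 rose and 19 fell at least 2-fold. The 57 genes were sorted into groups by what their products are known to be, after their values had been seen. The size of a group therefore says nothing about enrichment, and a shared direction within a group is no test of a function. For loci without a symbol the product named is family-level background knowledge. The gene lists used beside these groups hold only genes that the gene table's symbols, synonyms or descriptions matched. Several named genes of the same families therefore lie outside them, and a count of 0 refers to the list. With so few of all genes called, most lists of this length would hold 0 calls by that share alone.

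**Figure D1:**
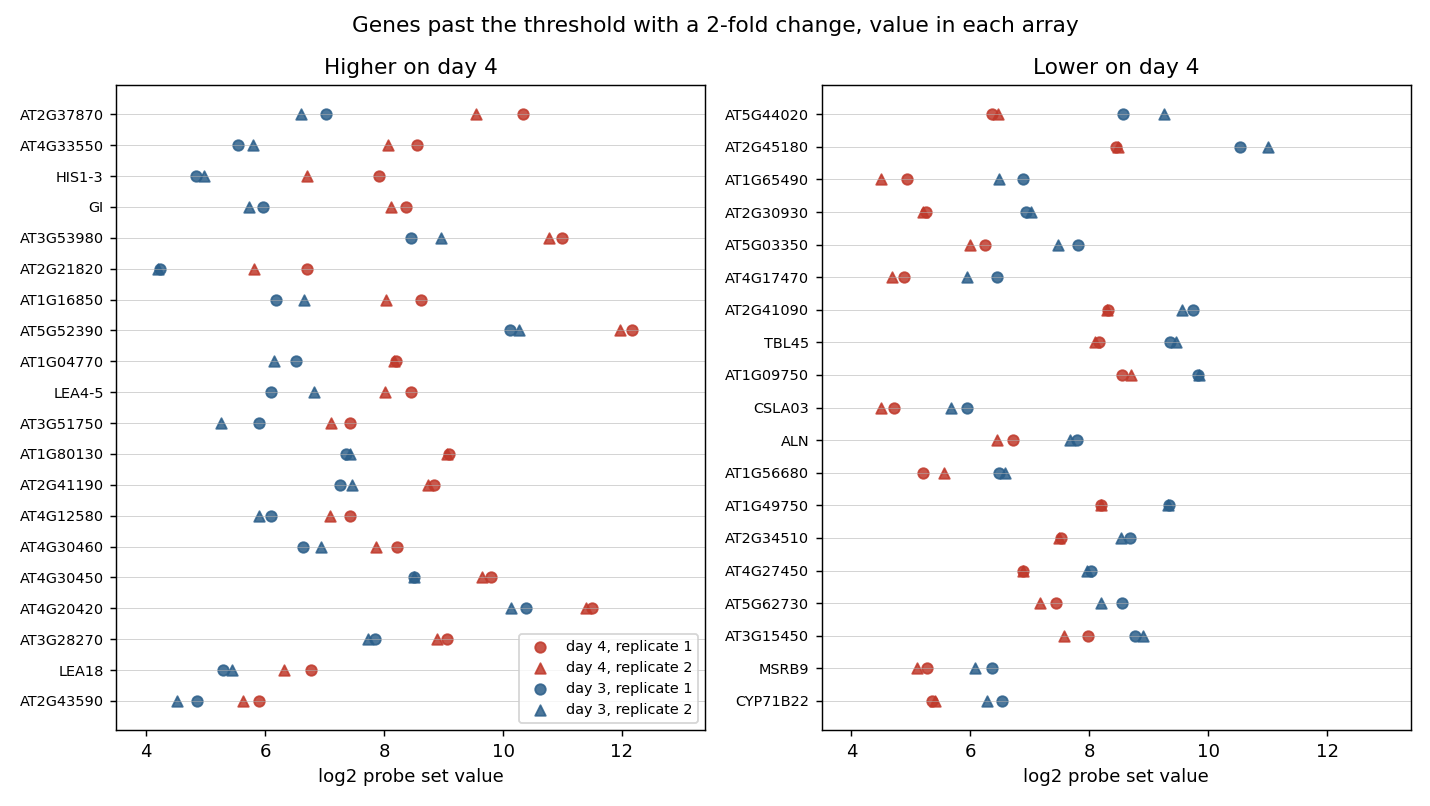
Log2 value in each array for the 20 largest rises (left) and the 19 falls of at least 2-fold (right) among named genes past the threshold. Red marks are day 4 arrays, blue marks day 3 arrays, circles replicate 1 and triangles replicate 2. In every line the red and blue marks are apart, by 2.53 log2 units for AT2G37870 and by as little as 0.76 for AT2G43590 and AT5G62730.

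Small cysteine-rich proteins of the lipid-transfer and seed-albumin kind are secreted proteins that carry or bind lipids at the cell surface. Among the named genes past the threshold, they held 3 of the 5 largest rises and the second largest fall. AT2G37870 stood at 10.34 and 9.55 in the day 4 arrays, against 7.02 and 6.6 in the day 3 arrays. The change of 3.13 ± 0.25 (SE), or 8.78-fold, was the largest among named genes (limma adjusted p = 0.00413), and the gap between the nearest arrays, 2.53, exceeded the difference between the replicates of either day. AT4G33550 had 8.55 and 8.06 on day 4, and 5.55 and 5.79 on day 3, a rise of 2.64 ± 0.18 (SE; adjusted p = 0.00246). AT3G53980 had 10.99 and 10.78 on day 4 and 8.46 and 8.96 on day 3, a rise of 2.18 ± 0.17 (SE; adjusted p = 0.00413). It was already among the brighter probe sets on day 3, whereas AT4G33550 then lay below the array medians of about 7. AT2G45180, a protein of the same fold, went the other way, with 8.45 and 8.48 on day 4 and 10.54 and 11.01 on day 3, which is 4.95-fold lower (change -2.31 ± 0.17, SE; adjusted p = 0.00275). Its day 4 replicates differed by far less than its day 3 replicates. With each of the 6 arrays left out in turn, AT4G33550 and AT2G45180 passed every time. AT2G37870 did not pass without day 3 replicate 2 (adjusted p over the 6 fits 0.00465 to 0.0621), nor AT3G53980 without day 4 replicate 1 (0.02 to 0.0536).

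Among the 57 named genes, 5 were placed with the dehydration response or seed maturation once the values were known, and all 5 were higher on day 4. HIS1-3, a stress-inducible variant of the linker histone, had 7.92 and 6.7 on day 4 and 4.83 and 4.98 on day 3. The change was 2.40 ± 0.33 (SE; adjusted p = 0.0337), and the day 4 replicates differed by more than a log2 unit although both exceeded both day 3 arrays. LEA4-5, a LEA protein, had 8.46 and 8.02 on day 4, against 6.09 and 6.82 on day 3, a rise of 1.78 ± 0.26 (SE; adjusted p = 0.0394). LEA18 had 6.77 and 6.31 on day 4 and 5.29 and 5.45 on day 3, a rise of 1.17 ± 0.18 (SE; adjusted p = 0.0478). AT2G21820, a locus of the seed maturation protein kind, followed the same pattern from a lower start. It had 6.70 and 5.82 on day 4 and 4.24 and 4.20 on day 3, a rise of 2.04 ± 0.25 (SE; adjusted p = 0.0221). COR15A, which encodes a protective protein of the chloroplast stroma, was bright throughout, with 12.87 and 12.86 on day 4, against 11.75 and 12.05 on day 3, and rose by 0.97 ± 0.13 (SE; adjusted p = 0.0335). For these 5 genes the change stayed between 0.82 and 3.01 whichever array was left out, but the calls did not hold. HIS1-3 and AT2G21820 passed only without day 4 replicate 1 or 2, and LEA4-5, LEA18 and COR15A passed in none of the 6 fits, with adjusted p up to 0.436. HIS1-3 also did not pass with a trended and robust prior or with array weights, nor LEA18 with array weights, the replicate block or probe sets of 1 gene alone.

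Other members of the dehydration and LEA lists had mostly smaller differences. The dehydrin LTI30 had 7.57 and 7.0 on day 4, against 3.99 and 5.90 on day 3. Its mean difference of 2.34 was nearly that of HIS1-3, but the day 3 replicates lay so far apart that the adjusted p was 0.147. COR15B, the close relative of COR15A, differed by 0.50 (adjusted p = 0.149) without overlap, and the dehydrin COR47 by 0.36 with overlapping arrays (adjusted p = 0.766). The ABA and dehydration list had 5 measured genes, of which 2 rose, 0 fell and 3 did not pass, and the day 4 arrays exceeded the day 3 arrays in 4. The median change was 0.97, and 0.86 when arrays were centred on the spike-in controls. Of the 7 measured genes of the LEA list, 2 rose, 0 fell, and 5 had both day 4 arrays above both day 3 arrays, with a median of 0.26. The dehydrin-like AT1G54410 and the gene LEA (AT2G21490) overlapped between the days, and AT2G44060, AT2G46140 and AtLEA4-1 differed by 0.19, 0.24 and 0.26. Among all 13356 genes, 18.2% had non-overlapping arrays higher on day 4 and 19.8% lower, and the median change was near 0. AT5G66780, which is in neither list, had 6.89 and 5.47 on day 4 and 4.07 and 4.04 on day 3, with day 4 replicates too far apart to pass (adjusted p = 0.0782).

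GI (GIGANTEA), which links the circadian clock to flowering time, was the measured member of the clock list and had the smallest p of all named genes. It stood at 8.37 and 8.12 in the day 4 arrays, against 5.96 and 5.73 in the day 3 arrays, a rise of 2.40 ± 0.14 (SE), or 5.27-fold (adjusted p = 0.00246). The gap of 2.16 between the nearest arrays was far wider than the difference between replicates on either day. GI passed with any array left out, with changes of 2.28 to 2.52. GI transcript is known to cycle over the day, so a difference in the hour of sampling between the days, which is not given, cannot be told apart from a change with drought or age. Of 3 other genes of photoperiod and floral transition, FD, a bZIP partner of the flowering signal, differed by 0.37 (adjusted p = 0.328), LD by 0.16 (adjusted p = 0.744) and AGL24 by -0.07 with overlapping arrays.

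Another 3 genes gave some of the steadiest rises. AT5G52390, of the PAR1 protein family, was among the brightest changing genes, with 12.16 and 11.96 on day 4 and 10.12 and 10.27 on day 3 (change 1.87 ± 0.13, SE; adjusted p = 0.00269). AT1G80130, a tetratricopeptide-repeat-like protein, had 9.09 and 9.05 on day 4, against 7.36 and 7.43 on day 3 (change 1.68 ± 0.11, SE; adjusted p = 0.00246). AT1G04770 (SDI2), a gene known to be induced by sulphur deficiency, had 8.20 and 8.17 on day 4 and 6.52 and 6.15 on day 3 (change 1.85 ± 0.14, SE; adjusted p = 0.00403). In all 3 genes the replicates of a day lay far closer together than the days did. AT5G52390 and AT1G80130 passed with any array left out, and AT1G04770 in all but the fit without day 4 replicate 1 (highest adjusted p 0.0536).

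**Figure D2:**
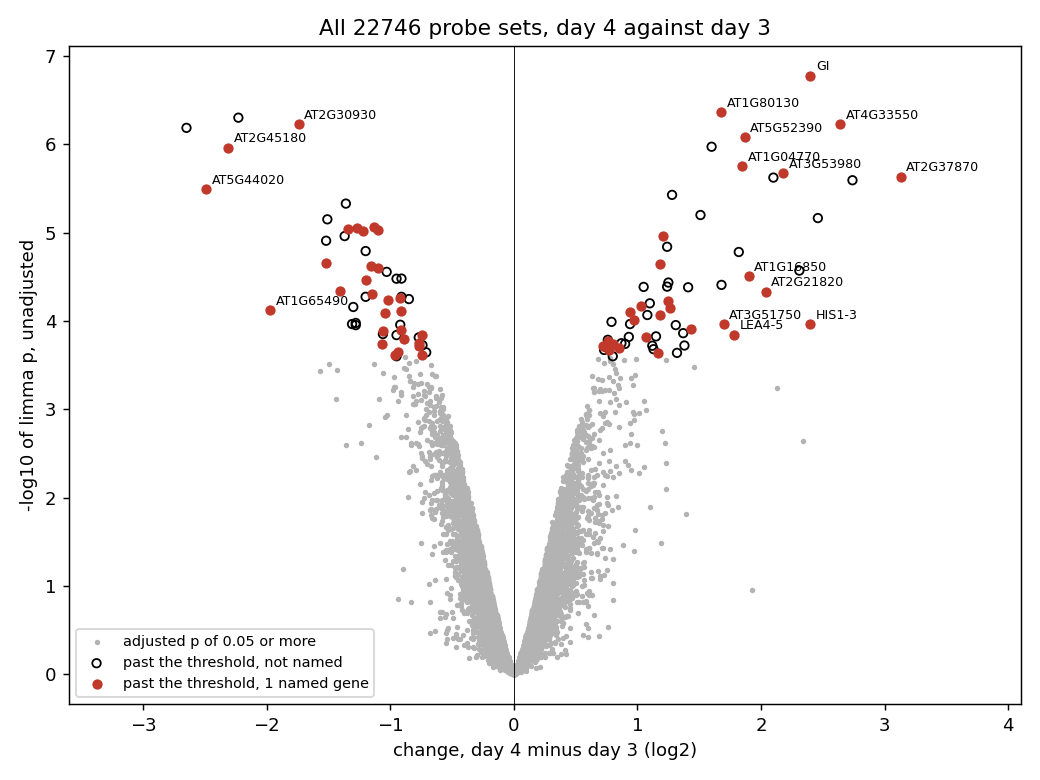
Change between the days (horizontal axis, day 4 minus day 3, log2) against the unadjusted limma p (vertical axis, -log10) for all 22746 probe sets. Filled red points are the 57 named genes past the threshold, open circles the 57 unnamed probe sets past it and grey points the others; GI lies highest, and AT2G37870 and AT5G44020 lie farthest out among named rises and falls.

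Membrane transporters changed in both directions, 4 up and 1 down. AT2G41190, of an amino acid transporter family, had 8.84 and 8.74 on day 4, against 7.26 and 7.46 on day 3, a rise of 1.43 ± 0.20 (SE; adjusted p = 0.0369). TMT2, which loads sugars into the vacuole, had 9.09 and 8.89 on day 4 and 8.19 and 8.18 on day 3, a rise of 0.80 (adjusted p = 0.0432). AT1G79520, of the cation efflux family, rose by 0.94 and AT4G13800, a magnesium-transporter-like gene, by 0.72. AT5G62730, of the major facilitator kind, had 7.44 and 7.17 on day 4 and 8.55 and 8.20 on day 3 and fell 2.1-fold (adjusted p = 0.0432). None of the 5 passed when any of the 4 arrays of days 3 and 4 was left out, and AT2G41190 alone passed without a day 5 array (adjusted p 0.02 to 0.385 over the 6 fits). In the list of 19 sugar and water transport genes, which does not hold TMT2, 0 passed. The 14 measured SWEET genes, which encode sugar exporters, included SWEET13 with 9.38 and 9.62 on day 4, against 8.29 and 8.52 on day 3 (difference 1.1, adjusted p = 0.318), and SWEET4 with 10.40 and 10.19, against 9.16 and 9.60 (0.91, adjusted p = 0.0937). Both were higher without overlap, whereas SWEET17, a fructose carrier of the vacuole, was lower without overlap (-0.58, adjusted p = 0.199). Of the 14 SWEET genes, 21.4% were higher and 14.3% lower without overlap, against 18.2% and 19.8% of all genes. Their median change was -0.02. SFP1, a sugar-porter family gene, had 4.78 and 4.15 on day 4 and 5.54 and 5.45 on day 3, with an adjusted p of 0.112.

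Of 9 genes for wall and surface proteins, 7 fell and 2 rose. TBL45, of a family that puts acetyl groups on wall polysaccharides, had 8.16 and 8.09 on day 4 and 9.35 and 9.45 on day 3, a change of -1.27 ± 0.12 (SE; adjusted p = 0.00874). CSLA03, a cellulose synthase-like A gene of a family that makes mannans, had 4.72 and 4.50 on day 4, against 5.94 and 5.68 on day 3 (change -1.20 ± 0.14, SE; adjusted p = 0.0191). AT2G34510, a wall protein of the DUF642 kind, had 7.53 and 7.49 on day 4 and 8.69 and 8.54 on day 3 (change -1.1, adjusted p = 0.0164). The other falls were those of AT4G23820, a pectin lyase-like gene (-0.91), AT1G29660, a GDSL lipase-like gene (-0.89), and the dirigent-like genes AT4G11190 (-0.74) and AT4G11210 (-0.77), dirigent proteins being known for steering lignan coupling. The 2 rises were neighbours that encode glycine-rich proteins. AT4G30460 had 8.22 and 7.87 on day 4, against 6.64 and 6.94 on day 3 (change 1.25, adjusted p = 0.0246), and AT4G30450 had 9.80 and 9.65, against 8.51 and 8.51 (change 1.21, adjusted p = 0.00923). With 1 of the arrays of day 3 or day 4 left out none of the 9 passed, and without a day 5 array TBL45, CSLA03, AT2G34510 and AT4G30450 did, with adjusted p of 0.0204 to 0.506 over the group.

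The list of 35 genes for wall polysaccharide synthesis held the same 2 falls, TBL45 and CSLA03, and 0 rises. In 31.4% of its genes both day 4 arrays lay below both day 3 arrays and in 2.86% above, against 19.8% and 18.2% of all genes, and the median change was -0.08. The 22 measured TBL genes, which share members such as TBL45 with that list, had a median of -0.09, with 8 lower and 1 higher without overlap. TBL34, a xylan acetyltransferase, differed by -0.73 (adjusted p = 0.117), TBL23 by -0.36 and TBL35 by -0.37, and GAUT15 of the pectin-synthesising family by -0.46 (adjusted p = 0.241). Of 29 expansins and xyloglucan enzymes, which loosen walls, 0 passed, and XTH16 differed by -0.54 while EXLB1 differed by 0.72. The median of that list, -0.02, was close to that of all genes. Of 41 glycosyl hydrolases 0 passed and the median was -0.06. The 4 measured pectin enzymes held PME61 at -0.49 and PMEPCRF at -0.28, lower without overlap, and ATPMEPCRB and AT4G02300 with overlapping arrays.

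Genes for lectins, chitinases and leucine-rich repeat proteins, families known from defence, moved in both directions, 2 up and 4 down. AT5G03350, a legume lectin, had 6.24 and 6.0 on day 4, against 7.81 and 7.47 on day 3, and fell 2.87-fold (change -1.52 ± 0.17, SE; adjusted p = 0.0154). The jacalin-like lectin AT1G73040 had 7.98 and 7.83 on day 4 and 6.80 and 6.96 on day 3, a rise of 1.03 ± 0.13 (SE; adjusted p = 0.0271). The pair of chitinase-family genes also split. AT2G43590 had 5.89 and 5.62 on day 4, against 4.86 and 4.51 on day 3 (change 1.07, adjusted p = 0.0399), and AT1G56680 had 5.21 and 5.56, against 6.48 and 6.59 (change -1.15, adjusted p = 0.0231). AT1G49750, a leucine-rich repeat protein, had 8.20 and 8.19 on day 4 and 9.34 and 9.32 on day 3, with replicates almost equal on both days (change -1.13, adjusted p = 0.00874). AT4G08850, a leucine-rich repeat receptor kinase, fell by 0.96. None of the 6 passed without an array of day 3 or day 4, and 3 passed without a day 5 array (AT5G03350, AT1G73040 and AT1G49750; adjusted p up to 0.454 over the group). In the list of 19 salicylate and pathogen response genes 0 passed, and its leading gene was the defensin PDF2.5, which differed by 0.48 (adjusted p = 0.355).

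AT5G44020, of the HAD acid phosphatase family that includes vegetative storage proteins, had the largest fall of the named genes. It stood at 6.36 and 6.46 on day 4, against 8.56 and 9.25 on day 3, which is 5.64-fold lower (change -2.49 ± 0.21, SE; adjusted p = 0.0049). The day 4 arrays were close to each other and 2.1 below the nearer day 3 array. AT4G17470, a palmitoyl thioesterase-like gene, had 4.89 and 4.68 on day 4 and 6.44 and 5.95 on day 3 (change -1.41, adjusted p = 0.0221). AT1G09750, an aspartyl protease, had 8.55 and 8.70 on day 4 and 9.82 and 9.85 on day 3 (change -1.22, adjusted p = 0.00874). AT1G03710, of the cystatin-like kind that inhibits proteases, rose by 0.77. AT5G44020 did not pass without either day 4 array (adjusted p 0.0166 to 0.0677 over the 6 fits), AT4G17470 passed only without day 3 replicate 2 (0.0346 to 0.2), AT1G09750 only without a day 5 array and AT1G03710 in none. The list of 37 proteases and inhibitors, which holds neither AT1G09750 nor AT1G03710, had 0 calls. The 4 with the smallest p were the serine carboxypeptidase-like genes SCPL34 (-0.80), SCPL45 (-0.54), scpl31 (-0.79) and scpl25 (-0.54), all lower without overlap, with adjusted p of 0.0972 to 0.169. That family had 29 measured genes, 14 of them with a change above 0, and a median change of -0.01.

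All 6 named genes of metabolism and redox, a group formed once the values were known, were lower. ALN, allantoinase of purine breakdown, had 6.71 and 6.44 on day 4, against 7.79 and 7.68 on day 3 (change -1.16 ± 0.13, SE; adjusted p = 0.0161). MSRB9, a methionine sulfoxide reductase that repairs oxidised proteins, had 5.27 and 5.10 on day 4 and 6.36 and 6.08 on day 3 (change -1.04, adjusted p = 0.0294). CYP71B22, a cytochrome P450, had 5.36 and 5.41 on day 4 and 6.53 and 6.28 on day 3 (change -1.02, adjusted p = 0.0244). GH3.3, which inactivates auxin by conjugation, fell by 0.74, the glutaredoxin AT1G06830 by 0.94 and the methyltransferase AT4G36470 by 0.92. Of the 6, only ALN passed without a day 5 array and none passed without an array of day 3 or day 4, with adjusted p up to 0.451. CYP71B22 was the sole call among 73 P450 and UDP-glycosyltransferase genes, whose non-overlapping members were lower in 28.8% and higher in 9.59%, against 19.8% and 18.2% of all genes. Its relative CYP71B26 differed in the opposite direction, with 8.60 and 8.58 on day 4 and 7.88 and 7.95 on day 3 (0.68, adjusted p = 0.0522). CYP71B31 had the widest replicate spread among the named P450 genes, with 5.56 and 8.79 on day 4 and 6.10 and 4.39 on day 3, and its difference of 1.93 had an adjusted p of 0.68. GH3.3 was likewise the sole call among 17 auxin genes, where IAA30, an auxin-response repressor, differed by -0.47, GH3.9 by -0.45 and IAA34 by 0.23.

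Calcium, chaperone and DNA-binding proteins gave 3 falls and 1 rise. AT2G41090, a calmodulin-like EF-hand protein, had 8.32 and 8.29 on day 4, against 9.74 and 9.55 on day 3 (change -1.34 ± 0.13, SE; adjusted p = 0.00874). It passed without either day 5 array and failed without any of the 4 others (highest adjusted p 0.115). AT5G05790, a MYB-like protein, fell by 0.77 and AT4G21870, of the small heat shock protein kind, by 0.91, while the DNAJ co-chaperone AT2G20560 had 6.15 and 6.26 on day 4 and 5.49 and 5.41 on day 3 and rose by 0.76. These 3 passed in none of the fits with an array left out. Among 9 genes of the calmodulin-like list, to which AT2G41090 does not belong, 0 passed. CML42 differed by 0.52 and CML30 by -0.34, CML38 by -0.25, and AT4G35987 by -0.25 with overlapping arrays. Of the heat shock list, which holds neither AT4G21870 nor AT2G20560, 4 genes were measured and 0 passed. All 4 had both day 4 arrays above both day 3 arrays, as had 18.2% of all genes. Hsp70-2 had 10.03 and 10.09 on day 4, against 9.40 and 9.34 on day 3 (0.69, adjusted p = 0.0926), and the others were ATHSP22.0 (0.49), HSA32 (0.19) and AT5G48570 (0.16). The list of 31 bHLH, MYB, bZIP and ERF factors, which does not hold AT5G05790, had 0 calls. Without overlap 41.9% of it was higher and 16.1% lower, against 18.2% and 19.8% of all genes, and the median change was 0.12, or 0.01 with spike-in centring. bHLH34 had the smallest p among them and differed by 0.53 (adjusted p = 0.222). The measured NAC gene, NAC014, differed by -0.36 (adjusted p = 0.613).

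AT4G27450 and AT3G15450, related proteins of the aluminium-induced kind that are known to respond to carbon starvation, both fell. AT4G27450 had 6.89 and 6.89 on day 4, against 8.02 and 7.96 on day 3 (change -1.1 ± 0.11, SE; adjusted p = 0.00874). AT3G15450 had 7.97 and 7.58 on day 4 and 8.76 and 8.91 on day 3 (change -1.06 ± 0.15, SE; adjusted p = 0.038). AT4G27450 passed without a day 5 array and failed without any of the 4 others, and AT3G15450 in none of the 6 fits (highest adjusted p 0.24). None of the 5 measured genes of the carbon starvation list, which does not hold this pair, passed. EXO, which that list held for its known response to carbon supply, differed by 0.53 and AKINBETA1, a subunit of the energy-sensing kinase SnRK1, by -0.39, and MCCA, MCCB and IVD of leucine breakdown by -0.12, 0.03 and 0.05. Of 17 senescence and autophagy genes 0 passed. Without overlap 41.2% of them were higher and 17.6% lower, against 18.2% and 19.8% of all genes. The median change was 0.13, or 0.03 with spike-in centring. BETA-VPE, a vacuolar processing enzyme, had 8.67 and 8.54 on day 4, against 8.03 and 7.47 on day 3 (0.85, adjusted p = 0.13), GAMMA-VPE differed by 0.60 and SAG29 by 0.64, while ATG8E of the autophagosome differed by -0.49. Of the other VPE genes, DELTA-VPE overlapped (0.18) and ALPHA-VPE was lower without overlap (-0.20).

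Of the 8 remaining named genes, 6 rose and 2 fell. AT1G16850 had 8.62 and 8.03 on day 4 and 6.19 and 6.65 on day 3 (change 1.90 ± 0.22, SE; adjusted p = 0.0185). AT3G51750 had 7.43 and 7.10 on day 4, against 5.89 and 5.25 on day 3 (change 1.70, adjusted p = 0.0337). AT4G12580 had 7.42 and 7.09 on day 4 and 6.09 and 5.90 on day 3 (change 1.26, adjusted p = 0.0277). No product is stated for these loci in the gene table used here. AT4G20420, of a tapetum-specific family, was the brightest of the 8, with 11.49 and 11.39 on day 4, against 10.39 and 10.13 on day 3 (change 1.18, adjusted p = 0.0299). AT3G28270, an At14a-like protein, had 9.06 and 8.89 on day 4 and 7.85 and 7.73 on day 3 (change 1.18, adjusted p = 0.0154), and AT4G11350 rose by 0.85. The falls were larger than most. AT1G65490 had 4.93 and 4.49 on day 4, against 6.89 and 6.48 on day 3 (change -1.97 ± 0.26, SE; adjusted p = 0.0283), and AT2G30930 had 5.26 and 5.20, against 6.93 and 7.02 (change -1.74 ± 0.12, SE; adjusted p = 0.00246). AT2G30930 passed with any array left out, AT1G16850 only without day 4 replicate 2 or a day 5 array, AT3G51750 and AT4G11350 in none, and the other 4 only without a day 5 array (adjusted p up to 0.486).

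**Figure D3:**
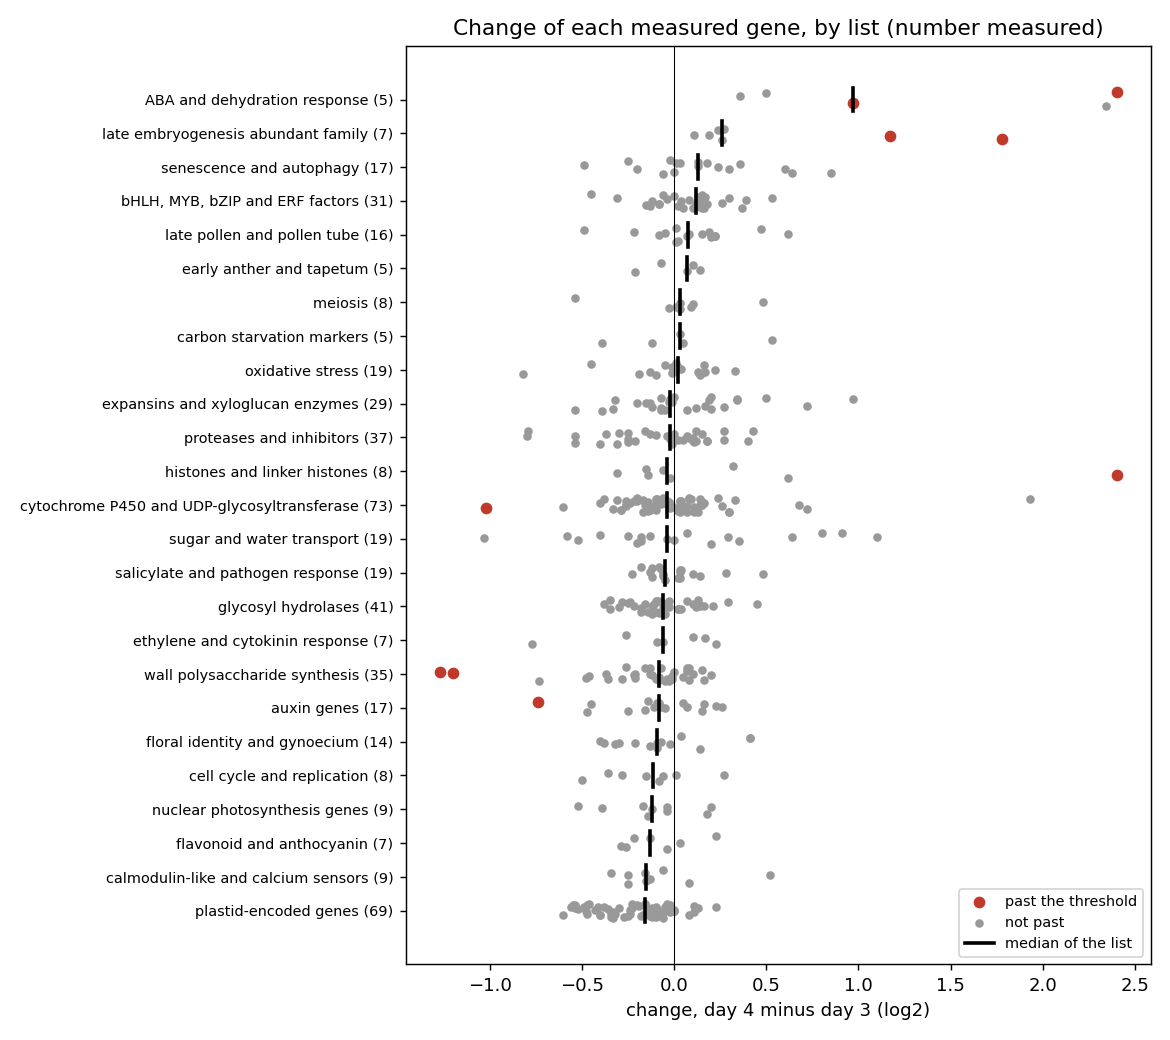
Change of each measured gene (horizontal axis, day 4 minus day 3, log2) for lists with at least 5 measured genes, with the number measured in brackets. Red points passed the threshold, grey points did not and bars are list medians; of the lists drawn, the ABA and dehydration list has the highest median, 0.97, and the plastid-encoded genes the lowest, -0.16 (0.10 without day 3 replicate 1).

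The lists of genes that mark cell types of the bud held no call, against 0.21% of all genes called higher and 0.217% lower. AT4G20420 above, of a tapetum-specific family and in none of these lists, rose. None of the 5 genes of the anther and tapetum list passed. AMS, the master regulator of the tapetum, had 8.98 and 9.19 on day 4 and 8.87 and 9.01 on day 3, overlapping (0.14, adjusted p = 0.9), and SWEET8 (0.07), SPL (0.10) and SHT (-0.07) overlapped too, while EMS1, a receptor kinase of early anthers, was lower without overlap (-0.21, adjusted p = 0.701). The array medians of that list were 8.98 and 9.19 on day 4 and 8.90 and 9.01 on day 3. Of 16 late pollen and pollen tube genes 0 passed, 31.2% were higher without overlap and 12.5% lower, against 18.2% and 19.8% of all genes, and the array medians were 6.14 and 6.14 on day 4 and 5.74 and 6.14 on day 3. MGH3, the sperm-cell histone, differed by 0.62 and AGL104 by 0.47, SETH6 by -0.49 and AGL94 by 0.19. In a bud, fewer cells of a type and less RNA per cell cannot be told apart. Of 8 meiosis genes 0 passed, with ATSPO11-1 at 0.48 (adjusted p = 0.165) and FANCM at -0.54 (adjusted p = 0.141) and the other 6 overlapping. Of 14 floral identity and gynoecium genes 0 passed, and 14.3% were higher and 57.1% lower without overlap, against 18.2% and 19.8% of all genes. NGA1, a style regulator, differed by -0.40, NUB by -0.32, ALC by 0.41 and INO by 0.41. Array medians of that list were 5.94 and 5.83 on day 4 and 5.98 and 6.14 on day 3. Of the fixed organ identity markers only UFO was measured, at 4.17 and 4.09 on day 4 and 4.17 and 4.01 on day 3.

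The lists for dividing and green tissue held no call either, against the same 0.21% and 0.217% of all genes. Of 8 cell cycle and replication genes 62.5% were lower and 12.5% higher without overlap, against 19.8% and 18.2% of all genes, with a list median of -0.12. POLA3, a DNA primase subunit, differed by -0.50, the replication helicase PRL by -0.36, AUR1, an Aurora kinase, by -0.28, HBT by -0.15 and AUR3 by -0.08. AUR2 (0.01) and cdc2cAt (-0.06) overlapped and CDC27a was higher (0.27). Of 9 nuclear photosynthesis genes, RCA, the activase of Rubisco, had 12.45 and 12.59 on day 4, against 13.08 and 13.0 on day 3 (-0.52, adjusted p = 0.142), and SBPASE of the Calvin cycle differed by -0.39. LHCB4.1 and LHCB4.2, antenna proteins, were higher without overlap (0.18 and 0.20). The 69 plastid-encoded genes had a median change of -0.16, which was 0.10 without day 3 replicate 1, and 0 calls. Their array medians were 9.33 and 8.75 on day 4 and 9.75 and 8.65 on day 3, so replicates of a day differed by more than the days did, and 13% of them were lower without overlap, against 19.8% of all genes. Genes often used as references stayed close, with GAPC2 at -0.09, TUB6 at -0.13 and PEX4 at 0.00, all overlapping. Of 8 histone genes HIS1-3 alone passed, the linker histone HON4 overlapped (-0.14), HTB1 differed by 0.32 and HTB11 by -0.31, and HTB4, HTB2 and HTR12 by -0.06, -0.02 and -0.15.

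Lists of other hormones and of surface and pigment chemistry held 0 calls, against 0.21% of all genes called higher and 0.217% lower. Of the cytokinin and ethylene genes, ARR15, a cytokinin response regulator, had 7.12 and 6.98 on day 4, against 7.71 and 7.94 on day 3 (-0.77, adjusted p = 0.155), RR16 was lower too (-0.26) and RR19 higher (0.23), while EIN3, RR18, RR22 and RR23 overlapped. Of the jasmonate genes, the factor MYC4 differed by -0.55 (adjusted p = 0.149), MYC3 by -0.07, and JMT overlapped. The gibberellin receptors GID1A and GID1B and the F-box gene SLY1 overlapped and GID1C was lower without overlap (-0.26). Of the cuticle genes, SHN3, a wax and cutin regulator, had 8.88 and 8.83 on day 4 and 8.29 and 8.32 on day 3 (0.55, adjusted p = 0.123). WSD1 of wax ester synthesis differed by 0.08, AT5G61590 by -0.29 and AT4G13840 by -0.23. Flavonoid genes ranged from UGT78D1 at -0.26 and AT5G54010 at -0.29 to BAN at 0.23, with DFR at -0.22, UGT78D2 at -0.13, UGT78D3 at -0.04 and UF3GT at 0.03. The glucosinolate genes UGT74B1 and BCAT4 differed by -0.31 and -0.19, the second with overlap. Among 19 oxidative stress genes the peroxidase AT5G64120 had the smallest p, with 3.74 and 4.1 on day 4 and 4.77 and 4.71 on day 3 (-0.82, adjusted p = 0.0973). The purple acid phosphatases PAP20 and PAP85, in the lists of storage and phosphate genes, overlapped.

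Size and test did not always go together. In all, 108 probe sets changed at least 2-fold and 31 of them did not pass. Among these AT2G25510 had 7.84 and 7.93 on day 4, against 9.82 and 9.09 on day 3 (-1.57, adjusted p = 0.0617), and AT5G59670 had 6.11 and 6.06 on day 4 and 7.31 and 7.12 on day 3 (-1.13, adjusted p = 0.0554). With LTI30 and AT5G66780 above, these are the named genes, 4 of 6 probe sets, whose days lay more than 1 log2 unit apart without a call. Between 15 and 23 probe sets passed when an array of day 3 or day 4 was left out, and 58 when an array of day 5 was. Of the 57 named genes, 6 passed in every such fit, namely AT4G33550, GI, AT5G52390, AT1G80130, AT2G30930 and AT2G45180, and 27 passed in none. These 6 also passed under the other alternatives run. The smaller changes depended on those too: the rises of AT4G11350, TMT2, AT1G03710, AT2G20560 and AT4G13800 did not pass with arrays centred on the spike-in controls, and the falls of AT4G11190, AT5G05790, AT1G06830 and AT4G08850 did not pass with array median centring.

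The day 5 arrays show where the genes stood a day later. These genes were chosen by a comparison that shares the day 4 arrays, so the counts are a description. Of the 28 genes that rose, 21 had a day 5 mean above the day 4 mean, 7 lay between day 3 and day 4 and 0 fell back past day 3. Of the 29 that fell, 14 went lower still, 13 lay between and 2 were above their day 3 level. HIS1-3 read 12.36 and 12.49 on day 5, LEA4-5 11.12 and 11.46, and GI 9.32 and 9.31. AT5G52390 read 11.29 and 11.12 on day 5 and AT4G20420 10.83 and 10.46, so both were highest on day 4. AT5G03350 read 4.36 and 4.07 and AT2G41090 6.68 and 6.46 on day 5, lower than on day 4. The 2 that came back were the aluminium-induced-like pair, AT4G27450 with 10.42 and 10.45 and AT3G15450 with 11.74 and 11.81 on day 5.

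**Figure D4:**
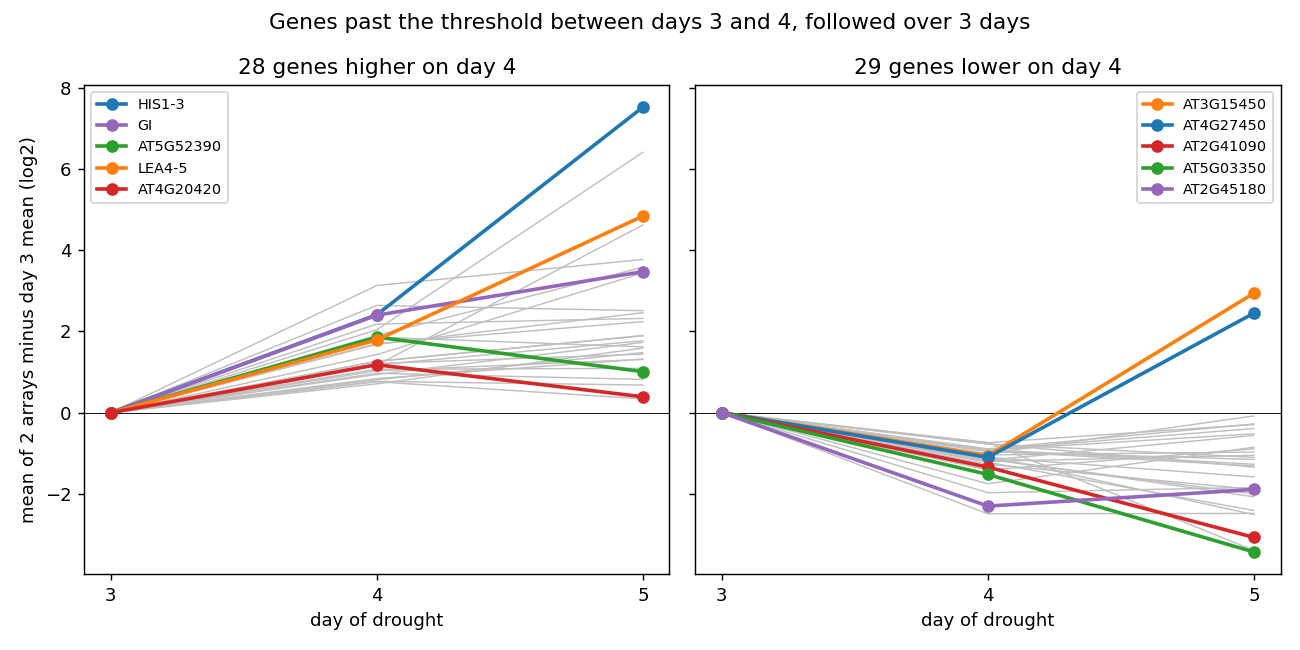
Mean of 2 arrays minus the day 3 mean (vertical axis, log2) against day of drought (horizontal axis) for the 28 genes higher (left) and the 29 lower (right) on day 4 than on day 3. Coloured lines are named in each panel and grey lines are the other genes; HIS1-3 goes on rising to day 5, and AT3G15450 and AT4G27450 end above their day 3 level.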

How the data were processed

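RNA of unopened buds was hybridised to Affymetrix arrays with biotin label, 2 per day. The authors deposited log2 values per probe set, made with RMA in the R package affy per the submitters' processing notes; versions are not given in the sources used here. RMA equalises the arrays' distributions, so a change is relative to the other transcripts, and it compresses changes of dim probe sets. Values ran from 2.3 to 14.5, with array medians of 6.97 to 7.03; the number of arrays limits precision. Of 22810 probe sets, 64 controls were left out.

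Genes were assigned to probe sets by the platform annotation, with symbols updated from a RefSeq gene table (TAIR10.1). It gave 1 gene for 13513, several for 503 and none for 8730; 13436 matched the table. The brightest probe set stands for a gene in lists. limma 3.58.1 in R 4.3.3 fitted 3 day means to all 6 arrays (lmFit, eBayes; 3 residual and 4.69 prior degrees of freedom). Tests are two-sided, adjusted by Benjamini-Hochberg over 22746 probe sets. The script was tested on simulated data.

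The comparison, its lists and the naming rule were chosen with earlier results of these data known. Every gene with a probe set of its own past the threshold could be named, besides all members of lists with at most 8 measured genes and otherwise the 4 with the smallest p. Genes singled out for other reasons were chosen after their values were seen. The symbols CCR2, LIP1 and CHI, matched to other genes, were dropped. The ABA synthesis and signalling, lipid-transfer, and proline and raffinose lists had no measured gene. A planned motif search in promoters was not run, as no sequences were given.

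Alternatives were the 4 arrays alone, the replicate block, a mean of at least 5, probe sets of 1 gene, a trended and robust prior, cyclic loess, array median and spike-in centring, array weights, and leaving out each array; where 1 array is left for a day, it is assumed to vary like the others.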

Additional observations from a re-analysis of the deposited data

How the results depend on the processing

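The number of probe sets past the threshold fell furthest when an array of day 3 or day 4 was left out, whichever it was. Such fits also have fewer degrees of freedom. It was 114, against 58 with the 4 arrays of days 3 and 4 alone, 46 when probe sets with 1 gene were tested alone, which are 13513 instead of 22746, and 205 with arrays centred on the added poly-A controls. Leaving out each array in turn gave 15 to 58. A left-out day 5 array leaves no day 5 spread to estimate, so those fits equal the fit of 4 arrays. Spike-in centring moved the median change to -0.109 and the share of higher calls to 32.7%, against 53.5%, and it assumes equal amounts added, which is not recorded. The spike-in sets averaged 6.46 and 6.64 on day 4 and 6.51 and 6.38 on day 3. With that centring the medians of the oxidative stress, carbon starvation, anther, late pollen, meiosis, CYP71B and ATG8 lists changed from above to below 0. None of the 57 named genes past the threshold changed direction under any alternative. Leaving out an array could not have turned them, because their arrays did not overlap between the days. The shift from spike-in centring was also far smaller than the smallest change that passed, 0.709, so this is no check of the calls. Genes that had not passed were not followed one by one. Leaving out 1 array also turned the sign of list medians near 0, and that of the plastid-encoded genes to 0.10 without day 3 replicate 1. Without day 4 replicate 2, 82.6% of the calls were higher. The other counts were 119 with a mean of at least 5, 166 with a trended and robust prior, 125 with cyclic loess, 114 with array median centring (57.9% higher) and 119 with array weights. Of the 57 named genes, 57 kept their call with cyclic loess, 55 with a mean of at least 5 (AT4G11210 and AT1G06830 were not tested), 54 with array weights (not HIS1-3, LEA18 and AT4G11190), 53 with median centring, 52 with spike-in centring, 52 with the trended and robust prior (not HIS1-3, AT2G20560, AT4G13800, AT4G11190 and AT5G05790), 51 with the replicate block (not LEA18, AT2G20560, AT4G13800, AT4G11190, AT5G05790 and AT4G08850), 46 with probe sets of 1 gene (not LEA18, AT4G11350, TMT2, AT1G03710, AT4G13800, AT4G11190, AT5G05790, AT4G11210, AT1G06830, AT4G08850 and AT5G62730) and 27 with the 4 arrays. Probe sets with a gap of at least 1 log2 unit numbered 60, and 56 to 59 under 3 alternatives. Replicate numbers were not taken to pair the arrays, since deviations from the day mean correlated by 0.099 between days 4 and 3, 0.14 between days 5 and 3 and 0.38 between days 5 and 4. With the replicate block 123 probe sets passed, 101 of them shared with the fit without it.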

Other observations

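The share of named genes past the threshold differed between chromosomes. Of all genes, 0.21% were called higher and 0.217% lower, and probe sets without a named gene are not counted here. Chromosome 4 held 18 of 1935 measured genes (0.93%), chromosome 2 held 14 of 2169 (0.645%), chromosome 1 held 14 of 3411 (0.41%), chromosome 5 held 6 of 2982 (0.201%) and chromosome 3 held 5 of 2720 (0.184%). No test was run on these shares. A few of the genes lie close together: AT4G30460 and AT4G30450 have no protein-coding gene between them and changed by 1.25 and 1.21, AT4G11190 and AT4G11210 have none between them and changed by -0.74 and -0.77, and AT4G21870 and MSRB9 have 2 between them and changed by -0.91 and -1.04. The files do not say whether probes of such neighbours share sequence. For 25S ribosomal RNA the values were 12.2 and 11.6 on day 4 and 11.8 and 11.5 on day 3.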
